A study of Mus musculus with 9 samples.

Results

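The 41 genes described here encode proteins of the cell cycle and of DNA replication. They were chosen by symbol, all 41 were found among the 55487 gene IDs of each table, and all 41 passed the filter on low counts that left 18341 genes for testing. They comprise 20 mitotic genes, 16 genes of S phase and 5 regulators of the step from G1 to S phase. RNA was sequenced from monocytes sorted from the spleens of untreated C57BL/6 mice, in 3 groups of 3 libraries. The WT Ly6Chi and WT Ly6Clo groups came from wild-type mice, and the KO Ly6Clo group came from mice lacking the Cebpa +37 element on both alleles (genotype Cebpa +37-/-). Ly6Chi monocytes, which carry much of the surface protein Ly6C, are the classical monocytes, and Ly6Clo monocytes are the nonclassical, vessel-patrolling ones. Cebpa encodes C/EBPα, a transcription factor of the myeloid lineage. Neither the extent of the deletion nor the age of the mice is stated, and replicates are not said to be separate mice, so each p-value reflects a library-to-library spread that may be technical. No KO Ly6Chi library was analysed here.

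As background, in a cell that commits to division, the kinases of cyclin D and then of cyclin E inactivate RB and free the E2F transcription factors, and E2F drives the genes for nucleotide synthesis and for the replication machinery. The mitotic genes are switched on later, in G2 and M phase, largely through the MuvB complex with B-MYB and FOXM1. Circulating monocytes are mostly not dividing, and classical monocytes leave the bone marrow soon after their last divisions, whereas nonclassical monocytes derive from them.

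The members' roles were set beside the DNA just before the genes' starts. RefSeq promoter windows of the build GRCm38.p6 were found for 34 of the 41 genes. The cell cycle homology region (CHR), the element bound by MuvB, has the letters TTTGAA or TTTAAA, and these were present on either strand within 250 bases before the start in 11 of 16 mitotic, 4 of 14 S phase and 2 of 4 G1 to S genes, against 25.2% of all 32851 windows. The E2F letters searched, TTTGGCGC, TTTCCCGC, TTTGCCGC or TTTCGCGC on either strand, were in 1 of 16 mitotic genes (Cdk1), in 5 of 14 S phase genes (Cdc6, Mcm5, Mcm6, Mcm7 and Pola1) and in 1 of 4 G1 to S genes (Cdk2), against 1.86% of all windows. CCAAT, the letters of the NF-Y site, was in 14 of 16 mitotic, 11 of 14 S phase and 2 of 4 G1 to S genes, against 33.8% of all windows. The members were counted by gene and the background by window, so a member with several RefSeq starts, such as Mcm7, had more chances to match. Such matches describe letters and do not show binding. The 6 windows that follow illustrate the contrast, each written 5′ to 3′ on the gene's own strand and ending at the base before the RefSeq start, with CHR and E2F letters in capitals. Cdk1 (chr10:69352913-69353062, minus strand), Cdc20 (chr4:118437344-118437493, minus strand) and Ccnb1 (chr13:100786487-100786636, minus strand) are mitotic genes with CHR letters close to the start, and Cdk1 also has E2F letters further upstream.
Cdk1: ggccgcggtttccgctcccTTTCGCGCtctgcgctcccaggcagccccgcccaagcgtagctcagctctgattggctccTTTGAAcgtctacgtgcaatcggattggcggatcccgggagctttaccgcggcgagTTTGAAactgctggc
Cdc20: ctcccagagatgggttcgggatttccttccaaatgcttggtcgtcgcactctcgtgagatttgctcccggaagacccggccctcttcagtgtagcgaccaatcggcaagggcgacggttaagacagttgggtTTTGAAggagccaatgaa
Ccnb1: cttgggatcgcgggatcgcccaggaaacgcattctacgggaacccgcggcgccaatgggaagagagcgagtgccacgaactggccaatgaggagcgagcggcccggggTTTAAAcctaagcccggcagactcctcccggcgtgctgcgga
Mcm6 (chr1:128359706-128359855, minus strand), Pola1 (chrX:93632156-93632305, minus strand) and Mcm7 (chr5:138171884-138172133, minus strand) are S phase genes with E2F letters. In Mcm6, the longer stretch in capitals holds 2 overlapping matches. Mcm7 is shown over its whole window of 250 bases because its match lies beyond the 150 bases shown for the others, and it has another RefSeq start without these letters. The RefSeq start used for Mcm7 lies 539 bases inside the gene's counted span (chr5:138164583-138172422), so its window falls within the gene as counted.
Mcm6: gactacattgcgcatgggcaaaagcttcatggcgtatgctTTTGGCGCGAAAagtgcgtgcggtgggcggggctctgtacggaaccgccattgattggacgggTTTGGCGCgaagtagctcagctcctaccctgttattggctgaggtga
Pola1: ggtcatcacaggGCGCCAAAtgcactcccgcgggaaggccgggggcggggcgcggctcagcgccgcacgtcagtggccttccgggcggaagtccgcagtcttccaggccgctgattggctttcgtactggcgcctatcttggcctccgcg
Mcm7: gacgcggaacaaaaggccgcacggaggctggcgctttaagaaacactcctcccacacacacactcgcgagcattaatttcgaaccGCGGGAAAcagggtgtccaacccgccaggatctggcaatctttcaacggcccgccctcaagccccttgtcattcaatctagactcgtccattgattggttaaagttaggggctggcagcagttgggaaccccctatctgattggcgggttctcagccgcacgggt

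Library depth ran from 48141590 to 173703361 counts, with WT Ly6Clo replicate 2 and KO Ly6Clo replicate 2 (149773219 counts) far deeper than the others, so that 3 counts were worth 0.0173 to 0.0623 CPM, the count scaled to a common library total. Cebpa itself was at 31.5, 51.3 and 51.6 CPM in WT Ly6Chi, at 18.2, 17.7 and 19.2 CPM in WT Ly6Clo and at 4.04, 2.89 and 2.74 CPM in KO Ly6Clo replicates 1 to 3. The sort labels matched their defining genes, since Ly6c2 was at 862 to 1063 CPM in WT Ly6Chi and at 2.14 to 5.33 CPM in the 6 Ly6Clo libraries. Some libraries stood apart. WT Ly6Chi replicate 3 was the only library with Xist (30.0 CPM) and without the Y-linked Ddx3y, which was at 77.3 and 69.4 CPM in replicates 1 and 2. WT Ly6Chi thus mixed sexes and did not come from 1 mouse alone, while both Ly6Clo groups looked male, and no fit had a term for sex. The replicate 1 library had the lowest Nr4a1 of each group (322, 2458 and 1638 CPM). KO Ly6Clo replicate 1 nearly lacked erythroid transcripts, with a summed level of 6.04 CPM over 12 markers, against 2237 to 7991 CPM in the other 2 KO libraries. Levels below are CPM on library sizes scaled by TMM (edgeR), listed in the order of replicates 1, 2 and 3, and a gene is called where edgeR's quasi-likelihood test, adjusted by Benjamini-Hochberg over all 18341 genes, gave a p under 0.05.

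**Figure D1:**
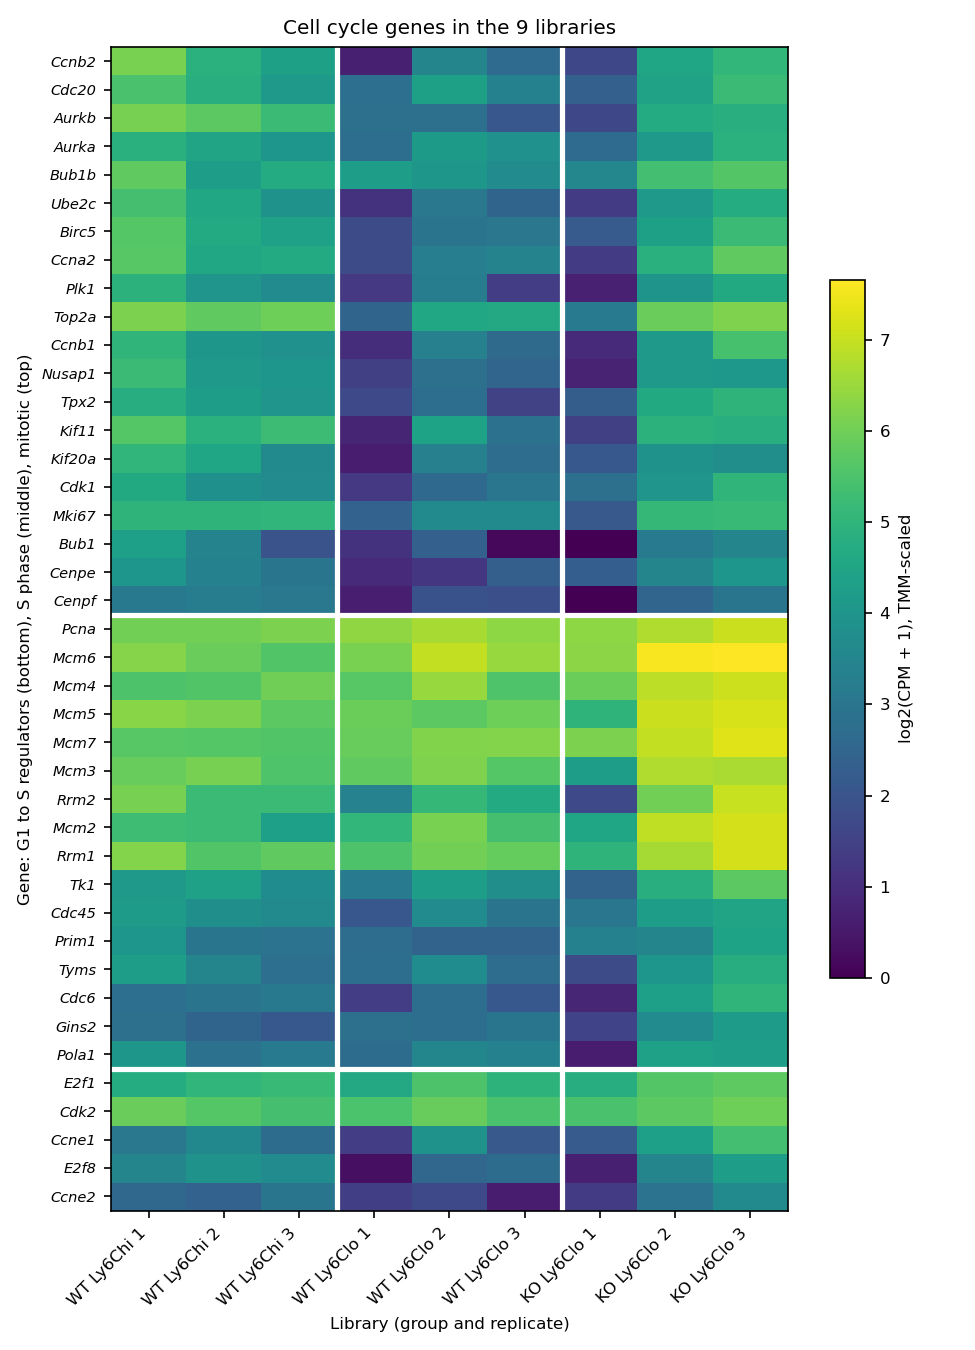
Level of each of the 41 genes (rows, ordered by mean TPM within each role) in each of the 9 libraries (columns), as log2(CPM + 1) on TMM-scaled library sizes. The mitotic block is bright in the WT Ly6Chi libraries and in KO Ly6Clo replicates 2 and 3 and dark in WT Ly6Clo and KO Ly6Clo replicate 1, and the S phase block is brightest in KO Ly6Clo replicates 2 and 3.

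Between wild-type nonclassical and classical monocytes, the mitotic genes stood lower in WT Ly6Clo while the S phase genes showed no common direction. All 20 mitotic genes had a negative log2 fold change, with a median of -2.15 (range -3.32 to -0.81), beside a median of -0.00 over all genes tested. In 16 of the 20, every WT Ly6Clo library lay below every WT Ly6Chi library, as did 14.7% of all genes tested. Of the 16 S phase genes, 7 were positive and 9 negative (median -0.14), and of the 5 G1 to S regulators, 1 was positive and 4 negative (median -0.29). None of the 41 passed the adjusted threshold in edgeR, which 3.51% of all genes did in either direction. At an unadjusted p under 0.05, 12 of the 41 were lower (11 mitotic genes and Ccne2) and 0 were higher, against 8.84% of all genes lower and 9.39% higher. DESeq2 called 8 of the 41, against 10.7% of all genes, and limma-voom 0, against 4.38%. Since whole sorted populations were sequenced, fewer cells that express a gene and less RNA of it per cell cannot be told apart here.

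Loss of the +37 element was examined by KO Ly6Clo against WT Ly6Clo. All 41 genes had a positive log2 fold change, where 52.6% of all genes tested were positive, with medians of 1.75 for the mitotic, 0.79 for the S phase and 1.49 for the G1 to S genes, beside 0.03 over all genes. The groups nevertheless overlapped in 40 of the 41. Prim1, which encodes the primase subunit that starts new DNA strands, was the exception, at 5.67, 4.38 and 4.39 CPM in WT Ly6Clo, with 9.33, 10.2 and 20.9 CPM in KO Ly6Clo, and it was 1 gene where 5.22% of all genes were fully higher. edgeR called 0 of the 41 (lowest adjusted p = 0.51), where 0.0709% of all genes were called in either direction. At an unadjusted p under 0.05, 9 of the 41 were higher (Cdk1, Birc5, Aurkb, Cenpe, Tpx2, Mcm4, Mcm7, Prim1 and Ccne2) and 0 lower, against 3.27% of all genes higher. DESeq2 called 2, Tpx2 and Cenpe, against 1.51% of all genes, and limma-voom 0, against 0.0872%.

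Against the WT Ly6Chi libraries, KO Ly6Clo monocytes had more RNA of the helicase gene Mcm7, the only member called in edgeR, with a log2 fold change of 1.26 ± 0.26 (SE, adjusted p = 0.032), where 2.06% of all genes were called higher. All 16 S phase genes were positive (median 0.65), whereas 18 of the 20 mitotic genes were negative (median -0.52) and 4 of the 5 G1 to S regulators positive (median 0.28), beside 0.04 over all genes. At an unadjusted p under 0.05, 5 of the 41 were higher, all of S phase (Mcm2, Mcm4, Mcm6, Mcm7 and Pcna), against 9.05% of all genes. Mcm6, Mcm7 and Pcna lay higher in every KO library than in any WT Ly6Chi library, as did 11.3% of all genes, and Aurkb and Cenpf lay lower, as did 11.7%. The direction of the mitotic genes rested on the replicate 1 libraries: over the 6 libraries of replicates 2 and 3, a choice made after seeing the data, 16 of the 20 were positive (median 0.32), and without KO Ly6Clo replicate 1 alone, 10 were positive (median -0.02). Of the S phase genes, 12 to 16 were positive over 18 alternative analyses (medians 0.21 to 1.34), the fewest without KO Ly6Clo replicate 3. This comparison differs in both genotype and monocyte class, and the 3 comparisons share libraries, so their values are given side by side and are not independent.

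**Figure D2:**
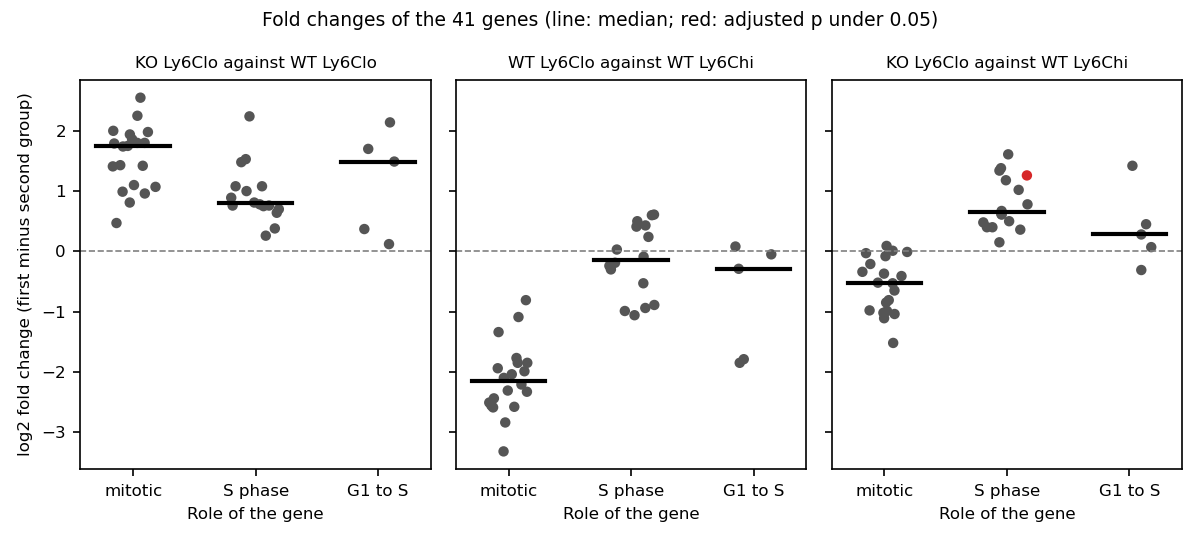
Log2 fold change (vertical axis) of each of the 41 genes by role (horizontal axis) in the 3 comparisons, with a bar at the median of each role and the called gene, Mcm7, in red. Against WT Ly6Chi, the mitotic genes of WT Ly6Clo centre on -2.15 and the S phase genes on -0.14.

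Among the mitotic genes, those for cyclin B and its kinase start mitosis. Ccnb2, cyclin B2, stood at 68.3, 28.5 and 19.4 CPM in WT Ly6Chi, at 0.587, 10.2 and 5.42 CPM in WT Ly6Clo and at 2.13, 21.6 and 32.9 CPM in KO Ly6Clo. For Ccnb1, cyclin B1, the values were 31.3, 15.6 and 13.8 CPM in WT Ly6Chi, 1.01, 9.01 and 5.21 CPM in WT Ly6Clo, with 0.869, 16.8 and 42.4 CPM in KO Ly6Clo. Both wild-type groups were fully apart for these cyclins, and the KO libraries overlapped each of them, with replicate 1 the lowest of the KO libraries. Cdk1, their kinase partner, had 23.9, 13.4 and 11.9 CPM in WT Ly6Chi, 1.39, 5.18 and 7.1 CPM in WT Ly6Clo, with 6.13, 14.9 and 31.4 CPM in KO Ly6Clo. Its log2 fold change was -1.85 ± 0.70 (SE, adjusted p = 0.21) for WT Ly6Clo against WT Ly6Chi and 1.94 ± 0.71 (SE, adjusted p = 0.69) for KO against WT Ly6Clo. Ccna2, cyclin A2, which acts from S phase into early mitosis, averaged 32.3 ± 14.9, 7 ± 3.97 and 27.9 ± 26.2 CPM in the 3 groups in the same order (SD, n = 3 each).

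The kinases of the chromosomes and spindle included the gene with the largest fold change. Aurkb, Aurora B of the chromosomal passenger complex, was at 67.3, 51.5 and 36.3 CPM in WT Ly6Chi, at 6.16, 6.08 and 3.23 CPM in WT Ly6Clo and at 2.14, 25.1 and 26.8 CPM in KO Ly6Clo. It lay below every WT Ly6Chi library in all 6 Ly6Clo libraries of either genotype. For WT Ly6Clo against WT Ly6Chi its log2 fold change of -3.32 ± 0.79 (SE) was the largest of the 41 and just missed the threshold (edgeR adjusted p = 0.056), ranging from 5.9e-05 to 0.18 over 18 alternative analyses and called in 6 of them. Birc5, survivin of the same complex, had a log2 fold change of -2.51 ± 0.78 (SE, adjusted p = 0.13), and Tpx2, which brings Aurora A to the spindle, of -2.58 ± 0.75 (SE, adjusted p = 0.1). Aurka, Aurora A, differed least of the mitotic genes in that comparison (-0.81 ± 0.59, SE), and its groups overlapped. Plk1, the Polo-like kinase, averaged 18.8 ± 9.34 CPM in WT Ly6Chi, 3.78 ± 3.89 CPM in WT Ly6Clo, with 13.2 ± 11.8 CPM in KO Ly6Clo (SD, n = 3 each).

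Further mitotic genes serve the spindle checkpoint and mitotic exit. Cdc20, the activator of the anaphase-promoting complex, had 43.4, 27.6 and 16.5 CPM in WT Ly6Chi, 5.89, 19.3 and 9.26 CPM in WT Ly6Clo, with 4.08, 20.1 and 36.3 CPM in KO Ly6Clo, and all 3 groups overlapped. Ube2c, the ubiquitin-conjugating enzyme of that complex, was fully lower in WT Ly6Clo than in WT Ly6Chi (log2 fold change -2.59 ± 0.96, SE, adjusted p = 0.2). Bub1, a checkpoint kinase, overlapped between the wild-type groups at 19, 9.76 and 2.88 against 1.16, 4.06 and 0.115 CPM, and had 0 counts in KO Ly6Clo replicate 1 beside 7.93 and 10.2 CPM in the other 2. Its relative Bub1b overlapped as well, at 54.5, 18.6 and 25.4 CPM in WT Ly6Chi and 18.8, 15.5 and 11.9 CPM in WT Ly6Clo, so that Aurka, Bub1, Bub1b and Cdc20 were the 4 mitotic genes whose wild-type groups overlapped.

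The most general proliferation markers, Mki67 and Top2a, were steady among the WT Ly6Chi libraries. Mki67, which encodes Ki-67, stood at 30.6, 30.5 and 31.7 CPM there, at 4.36, 11.5 and 11.3 CPM in WT Ly6Clo and at 3.4, 33.1 and 35.5 CPM in KO Ly6Clo. Top2a, topoisomerase II alpha, stood at 69.9, 53.8 and 61.2 CPM, at 4.55, 23.3 and 23.6 CPM and at 7.71, 59.4 and 71.6 CPM in the same groups. For both genes, KO Ly6Clo replicates 2 and 3 had levels like those of WT Ly6Chi, and KO Ly6Clo replicate 1 lay close to WT Ly6Clo replicate 1. The remaining mitotic genes serve kinetochores and spindle: Cenpe, Cenpf, Kif11, Kif20a and Nusap1 had WT Ly6Clo means of 2 to 9.24 CPM against 7.7 to 38.2 CPM in WT Ly6Chi, with each pair of groups fully apart. Cenpe had the lowest adjusted p of these 5 (0.11, log2 fold change -2.33 ± 0.69, SE), and Cenpf had 0 counts in KO Ly6Clo replicate 1.

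In S phase, the MCM genes encode the ring-shaped helicase that opens DNA, and they were abundant in all 3 groups. Per transcript length, Pcna was the highest S phase gene in each group, at 84.3 ± 3.97 TPM in WT Ly6Chi, 113 ± 6.27 in WT Ly6Clo with 146 ± 36 in KO Ly6Clo (SD, n = 3 each), while the mitotic genes ranged from 0.393 (Cenpf) to 18.5 TPM (Cdc20) as means in WT Ly6Clo. The S phase genes ranged from 2.08 (Cdc6) to 113 TPM (Pcna) there, so the ranges of both roles overlapped. Pcna, the sliding clamp of DNA polymerases, had 64.5, 64.4 and 70.2 CPM in WT Ly6Chi, 83, 100 and 81.5 CPM in WT Ly6Clo, with 80.7, 107 and 130 CPM in KO Ly6Clo. Every Ly6Clo library of either genotype lay above every WT Ly6Chi library, by a log2 fold change of 0.41 ± 0.19 (SE, adjusted p = 0.3) in wild type and 0.67 ± 0.19 (SE, adjusted p = 0.1) in KO.

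Mcm7 showed the same order with a wider step. It stood at 49.6, 49.1 and 46.9 CPM in WT Ly6Chi, at 58.1, 73.4 and 73.7 CPM in WT Ly6Clo and at 70.5, 123 and 154 CPM in KO Ly6Clo. The wild-type groups did not overlap (log2 fold change 0.50 ± 0.26, SE, adjusted p = 0.36), and KO Ly6Clo overlapped WT Ly6Clo through its replicate 1 (0.76 ± 0.26, SE, adjusted p = 0.64). The call against WT Ly6Chi held in 9 of 18 alternative analyses, with adjusted p from 0.0004 to 0.12. It was lost when only those 2 groups were fitted (adjusted p = 0.076) and when any of the 8 libraries other than KO Ly6Clo replicate 1 was left out (0.052 to 0.12). Exons of Mcm7 overlap those of Cops6 and Ap4m1 on the other strand, Cops6 having 132% of its counts, and the sources used here do not say whether counting used strand, so the level is less certain.

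Mcm6 stood in KO Ly6Clo at 79.6, 192 and 201 CPM, beside 76.2, 59.2 and 46.8 CPM in WT Ly6Chi and 69, 122 and 87.4 CPM in WT Ly6Clo. All KO libraries lay above all WT Ly6Chi libraries, with a log2 fold change of 1.38 ± 0.37 (SE, adjusted p = 0.08). Mcm4 had 45, 47.2 and 63 CPM in WT Ly6Chi, 50.2, 87.3 and 45.7 CPM in WT Ly6Clo, with 60.9, 118 and 135 CPM in KO Ly6Clo. Mcm5 had 77.1, 70.4 and 51.7 CPM, 60.8, 51.7 and 61.7 CPM and 30.7, 130 and 146 CPM in the same groups. These subunits of 1 ring did not keep the same level in KO Ly6Clo replicate 1, where Mcm5 was the lowest of all 9 libraries and Mcm7 lay within the range of WT Ly6Clo. Mcm2 and Mcm3, also of the ring, averaged 94.7 ± 63.9 and 75 ± 49.1 CPM in KO Ly6Clo, against 31.1 ± 10.6 and 56.8 ± 10.4 CPM in WT Ly6Chi (SD, n = 3 each).

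Genes that make deoxynucleotides included the member that varied most within the KO group. Rrm2, the regulated subunit of ribonucleotide reductase, had 66.9, 36.6 and 36.3 CPM in WT Ly6Chi, 9.42, 33.3 and 24.4 CPM in WT Ly6Clo, with 2.23, 64.5 and 128 CPM in KO Ly6Clo. Its KO libraries differed 57.2-fold, the widest fold within a group among the 39 members with more than 3 counts in each KO library, whereas its partner Rrm1 differed 4.63-fold there (30.4, 97.4 and 141 CPM). Rrm2 was 1 of 3 S phase genes, with Cdc6 and Prim1, that lay fully lower in WT Ly6Clo than in WT Ly6Chi, as did 14.7% of all genes, though with adjusted p = 0.65 (log2 fold change -1.06 ± 1.01, SE). Tyms and Tk1, enzymes that supply thymidylate, had KO ranges of 2.45 to 26.3 and 4.45 to 52 CPM, which overlapped both wild-type groups. Of the factors that load or start replication, Cdc6 ranged from 0.76 to 31.2 CPM among KO libraries and from 1.63 to 7.58 CPM over the 6 wild-type libraries. Cdc45, Gins2 and Pola1 had WT Ly6Clo means of 7.27, 6.28 and 8.4 CPM, and their groups overlapped in all 3 comparisons.

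The regulators of the G1 to S step fell into a steady pair and a variable trio. Cdk2 had 59.3, 48.7 and 40.9 CPM in WT Ly6Chi, 43.7, 57.3 and 43 CPM in WT Ly6Clo, with 42.7, 51.6 and 61.7 CPM in KO Ly6Clo, and its groups overlapped in every comparison, with log2 fold changes of -0.05 to 0.12 (SE 0.22 each). E2f1, the activator of S phase genes, had 25.7, 31.9 and 35.7 CPM, 23.7, 44.7 and 30.2 CPM and 26.1, 48.1 and 52.9 CPM in the same groups, again with overlap in every comparison. Ccne1, cyclin E1, ranged more widely, at 7.33, 10.8 and 5.57 CPM in WT Ly6Chi, 1.61, 14.4 and 3.44 CPM in WT Ly6Clo, with 3.63, 19.1 and 40.6 CPM in KO Ly6Clo. Ccne2, cyclin E2, and E2f8, a repressor of E2F targets, lay fully lower in WT Ly6Clo than in WT Ly6Chi, at means of 1.48 against 5.38 CPM (adjusted p = 0.24) and 3.49 against 12.1 CPM (adjusted p = 0.47). Ccne2 has 2966 counts in all, and the antisense gene Ints8, which overlaps its exons, has 1122% of that number.

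The balance of S phase to mitotic RNA separated classical from nonclassical monocytes in each library. Summed over the 20 mitotic genes, the level was 771, 459 and 398 CPM in WT Ly6Chi, 63.9, 198 and 139 CPM in WT Ly6Clo, with 63.3, 434 and 614 CPM in KO Ly6Clo. The 16 S phase genes summed to 645, 544 and 489 CPM, to 498, 742 and 569 CPM and to 421, 1181 and 1464 CPM. The wild-type groups thus overlapped in the S phase sum and not in the mitotic sum. The ratio of S phase to mitotic sum was 0.836, 1.18 and 1.23 in WT Ly6Chi, 7.78, 3.74 and 4.09 in WT Ly6Clo, with 6.66, 2.72 and 2.38 in KO Ly6Clo. All 6 Ly6Clo libraries had a higher ratio than all 3 WT Ly6Chi libraries, and the ratios of KO and WT Ly6Clo overlapped. KO Ly6Clo replicates 2 and 3 combined a mitotic sum within the WT Ly6Chi range with an S phase sum above that of every other library. The sums count unequal numbers of genes, and no test was made of them, since the genes were chosen with earlier results of these data known.

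**Figure D3:**
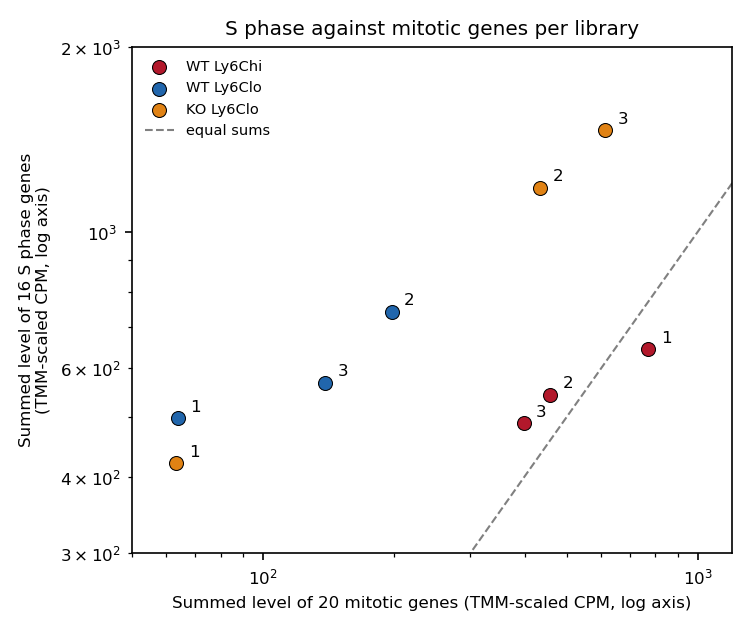
Summed level of the 16 S phase genes (vertical, log axis) against that of the 20 mitotic genes (horizontal, log axis) in each of the 9 libraries, in TMM-scaled CPM, with replicate numbers beside the points and a dashed line where both sums are equal. The WT Ly6Chi libraries lie near the line, and the Ly6Clo libraries of either genotype lie above it at ratios from 2.38 to 7.78.

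Within the KO group, the libraries kept nearly the same order from member to member. KO Ly6Clo replicate 1 had the lowest level of the 3 KO libraries for 41 of 41 members, where it had the lowest for 39.6% of all genes tested, and replicate 3 had the highest for 36 of 41, against 28.6% of all genes. The wild-type groups showed a shared order too, less fully. In WT Ly6Clo, replicate 2 was highest for 29 of 41 members (34.9% of all genes) and replicate 1 lowest for 28 (35.3%). In WT Ly6Chi, replicate 1 was highest for 30 of 41 (39.5%) and replicate 3 lowest for 28 (33.7%). The median fold between the highest and lowest KO library was 8.9 over 39 members, beside 3.27 within WT Ly6Clo and 1.83 within WT Ly6Chi over 41. Set against the WT Ly6Clo library of the same number, KO was higher for 17 of 41 members in replicate 1 (median log2 difference -0.10), for 39 of 41 in replicate 2 (0.83) and for 41 of 41 in replicate 3 (1.74). Without KO Ly6Clo replicate 1, still 0 members were called against WT Ly6Clo, with medians of 2.28 for the mitotic and 1.23 for the S phase genes. Without KO Ly6Clo replicate 3, these medians were 1.03 and 0.49.

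Other genes of the pathway came from lists that hold no member. Of 24 other mitotic genes, 22 were negative in WT Ly6Clo against WT Ly6Chi (median -1.74) and 1 fell by the test, where 3.51% of all genes were called in either direction. It was Racgap1, which encodes a centralspindlin subunit needed for cytokinesis. Racgap1 stood at 142, 141 and 161 CPM in WT Ly6Chi, at 25.6, 26.5 and 18.9 CPM in WT Ly6Clo and at 32.7, 46.1 and 33.9 CPM in KO Ly6Clo. Its log2 fold change was -2.64 ± 0.21 (SE, adjusted p = 0.00075) in WT Ly6Clo and -1.98 ± 0.20 (SE, adjusted p = 0.0012) in KO Ly6Clo against WT Ly6Chi, and its groups did not overlap in either comparison. Cks2 and Pttg1, a CDK-binding protein and securin, went the other way in wild type, both fully higher in WT Ly6Clo (0.68 ± 0.30 and 0.50 ± 0.20, SE, adjusted p = 0.27 and 0.22). They had log2 fold changes of -0.59 and -0.36 in KO against WT Ly6Clo, the only 2 of the 24 that were negative there. Of 20 other replication genes, 8 were positive and 12 negative in WT Ly6Clo against WT Ly6Chi and 19 of 20 were positive in KO Ly6Clo against either wild-type group, with 0 called in each comparison. At an unadjusted p under 0.05, 1 of the 20 was higher in WT Ly6Clo against WT Ly6Chi, 1 in KO against WT Ly6Clo and 4 in KO Ly6Clo against WT Ly6Chi. The shares of all genes were 9.39%, 3.27% and 9.05% in the same order. Pold1, the catalytic subunit of DNA polymerase delta, stood at 31.6, 43 and 42.6 CPM in WT Ly6Chi, 63.5, 131 and 76.5 CPM in WT Ly6Clo, with 61.1, 130 and 112 CPM in KO Ly6Clo, and Gins4 of the GINS complex overlapped between the wild-type groups (37.5 and 42.1 CPM on average).

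Upstream of the members, the D cyclins, their kinases and the CDK inhibitors had no common direction. Of 11 tested, 7 were positive in WT Ly6Clo against WT Ly6Chi and 5 in KO against WT Ly6Clo, with 0 called in both (3.51% and 0.0709% of all genes). In KO Ly6Clo against WT Ly6Chi, 1 was called, where 4.52% of all genes were. Ccnd2, cyclin D2, rose in KO Ly6Clo against WT Ly6Chi by a log2 fold change of 2.92 ± 0.66 (SE, adjusted p = 0.041), from 4.18, 13.2 and 17.3 CPM to 39.8, 168 and 55.1 CPM, and WT Ly6Clo had 33.5, 57.7 and 37.5 CPM. Ccnd3, cyclin D3, had means of 515, 485 and 509 CPM, and the inhibitor gene Cdkn2d had means of 104, 88.8 and 81.8 CPM in the order WT Ly6Chi, WT Ly6Clo, KO Ly6Clo. Among 18 genes of the RB, E2F and MuvB regulators, 1 was called in WT Ly6Clo against WT Ly6Chi (3.51% of all genes), and 0 were in KO against WT Ly6Clo (0.0709%) and in KO Ly6Clo against WT Ly6Chi (4.52%). Tfdp1, the dimer partner of E2F, fell in WT Ly6Clo against WT Ly6Chi from 103, 95.2 and 78.4 to 45.7, 42 and 36.6 CPM (log2 fold change -1.15 ± 0.26, SE, adjusted p = 0.045), and KO Ly6Clo had 38.9, 72.2 and 74.6 CPM, with replicate 1 within the WT Ly6Clo range. E2f4, an E2F of resting cells, averaged 144 CPM in both Ly6Clo groups and 106 CPM in WT Ly6Chi, and Lin37, of MuvB, 32.9 to 36.7 CPM in the 3 groups.

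Markers of other cells moved with the members in some libraries. The 12 erythroid markers summed to 205, 262 and 151 CPM in WT Ly6Chi, to 425, 3493 and 600 CPM in WT Ly6Clo and to 6.04, 7991 and 2237 CPM in KO Ly6Clo, and 12 of 12 were positive in KO against WT Ly6Clo, none called. In KO Ly6Clo replicate 1, where the members were lowest, Alas2, an enzyme of heme synthesis, had 0 counts and Gata1, the erythroid master regulator, 0.0155 CPM. Gata1 was at 12.6 and 31.5 CPM and Klf1 at 28.9 and 62.9 CPM in KO Ly6Clo replicates 2 and 3, so these regulators peaked in the library where the members peaked, while the globin-rich sum peaked in replicate 2. The B, T and NK cell marker sums were also lowest of the KO group in replicate 1 (141, 27.3 and 12.2 CPM, against 482 to 551, 95.4 to 147 and 61.8 to 258 CPM). The conventional dendritic cell sum and the platelet sum were the highest of the KO group in that library (388 against 156 to 296 CPM and 82.8 against 50.2 to 70.8 CPM). These sums were mostly Dpp4 (348 CPM) and Itgb3 (80 CPM), and no other gene of either list was highest there. Clec9a (0.341 CPM), Ppbp (0.497 CPM) and Itga2b (0.745 CPM), for instance, were the lowest of the KO group. The part of these cells in the KO result was not tested.

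In the wild-type comparison, erythroid sums ran opposite to the mitotic genes, being lower in each WT Ly6Chi library than in any WT Ly6Clo library. Within WT Ly6Clo, however, mitotic sums (63.9, 198 and 139 CPM) and erythroid sums (425, 3493 and 600 CPM) were both lowest in replicate 1 and highest in replicate 2. The progenitor, T, NK and conventional dendritic cell sums had that order too, and the neutrophil, B, plasma cell, red pulp macrophage and platelet sums did not. Within WT Ly6Chi, the mitotic sum was highest in replicate 1 and the erythroid sum in replicate 2. The 10 markers of progenitors and primary granules summed to 160, 104 and 107 CPM in WT Ly6Chi, 8.07, 90.1 and 74.4 CPM in WT Ly6Clo, with 24.5, 167 and 62.6 CPM in KO Ly6Clo, and their granule protease gene Prtn3 was at 54.8, 8.14 and 7.72 CPM in WT Ly6Chi and at most 0.582 CPM in the 6 Ly6Clo libraries. Of the 10 markers, 7 were negative in WT Ly6Clo against WT Ly6Chi. Kit, Cd34 and Gata2, the other 3, averaged 14.3, 4.38 and 6.67 CPM in WT Ly6Clo, against 2.59, 2.21 and 0.0264 CPM in WT Ly6Chi. Within WT Ly6Chi, the sum of the 10 markers and Prtn3 were highest in replicate 1, where the mitotic sum was highest too. Kit, Flt3 and Ms4a3 were lowest in that library (0.0715, 30.2 and 0.858 CPM). The 8 neutrophil markers summed to 331, 832 and 358 CPM in WT Ly6Chi and to 2.03 to 32.9 CPM over the 6 Ly6Clo libraries. The part of progenitors and neutrophils in the lower mitotic level of WT Ly6Clo was not tested.

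**Figure D4:**
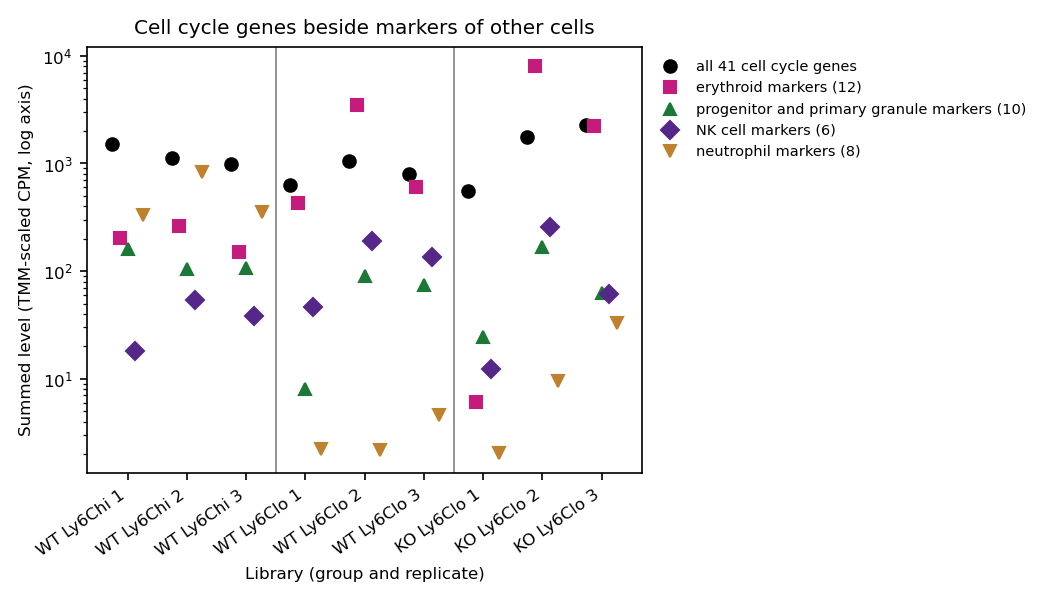
Summed level (vertical, log axis, TMM-scaled CPM) of the 41 cell cycle genes and of 4 marker lists of other cells in each of the 9 libraries. In KO Ly6Clo replicate 1 both the cell cycle sum (559 CPM) and the erythroid sum (6.04 CPM) are the lowest of the 9.

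Some levels carry a further limit of counting. Exons of 14 of the 41 members overlap those of another gene, among them Ccna2, Cdc20, Kif20a, Mcm7, Cdc45, Gins2 and Ccne2, whose partners have more counts than the member itself, and reads of both strands cannot be told apart where strand was not used. Mki67, Pcna, Aurkb, Ccnb1, Mcm5 and Mcm6 have no such overlap.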

How the data were processed

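RNA of 40000 to 50000 sorted spleen monocytes per library was amplified with the SMARTer Ultra Low kit from 10 ng of total RNA in 12 to 15 PCR cycles and read as pairs of 150 bases, per the labels' protocols. The tables' counts, deposited unnormalized per the file headers, are whole reads by gene. CPM, FPKM and TPM were deposited by the authors beside the counts, entered no test, and equal values recomputed from counts and lengths. The submitters' processing notes name STAR 2.5.1a, featureCounts 1.4.6-p5, Salmon 0.8.2 and the build GRCm38 (mm10). Strand use and the handling of overlapping genes are not given in the sources used here. A reference list of gene names gave symbols for 55141 of 55487 IDs, and the rest held at most 0.063% of any library. GENCODE M21, which held 55227 of the IDs, was used to compare gene positions.

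Groups and replicate numbers came from the sample titles. The tests used edgeR 4.0.16 in R 4.3.3, with filterByExpr (minimum count 10, by group), TMM scaling, 1 term per group over all 9 libraries, glmQLFit and glmQLFTest, Benjamini-Hochberg adjustment over all 18341 genes, and a threshold of 0.05. The fit was also run on simulated counts, drawn with a smaller spread between libraries than these data have. That run therefore cannot show how the tests perform here. CPM on TMM-scaled sizes compare libraries, and TPM compare genes. PCR copies are not independent molecules. Libraries of 1 group differed by 55.2 to 482 in chi-square per gene, so none looked like a repeat. Deviations of same-numbered KO and WT Ly6Clo libraries correlated at 0.46, 0.35 and 0.12, and those of differently numbered ones at -0.42 to 0.13. Replicate 3 thus did not stand out as a pair, the labels state no pairing, and the main tests used none. Same-numbered WT Ly6Clo and WT Ly6Chi libraries gave 0.35, 0.14 and 0.07, and KO Ly6Clo and WT Ly6Chi 0.33, 0.24 and -0.01.

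The members and lists were chosen with earlier results of these data known. Named by rule were Mki67, Top2a, Cdk1, Ccnb1, Mcm5, Pcna, Rrm2, E2f1, Ccne1 and Cdk2, any member called and the 3 of highest TPM per role, and, of the other pathway lists, called genes or else the 2 of highest TPM. The rule did not cover the marker lists of other cells, so not every called marker is named. Other values, such as those of Prim1, Bub1, Bub1b and Rrm1 by library, of single markers of other cells and of Ccnd2 or Racgap1 beyond their calls, were chosen after seeing the data. Of the alternatives (DESeq2 1.42.0, limma-voom with limma 3.58.1, other scaling and filters, a fit of 2 groups, a replicate block, a term for how the library numbers start, each library left out), the closing section gives the effect. A fit of the 6 libraries of replicates 2 and 3 was added after seeing the data.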

Additional observations from a re-analysis of the deposited data

How the results depend on the processing

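Counts of members called moved as follows, each beside 0 for KO against WT Ly6Clo, 0 for WT Ly6Clo against WT Ly6Chi and 1 for KO Ly6Clo against WT Ly6Chi. In KO against WT Ly6Clo, DESeq2 called 2 (1.51% of all genes) and leaving out any library called 0 (0.00996% to 0.107%). In WT Ly6Clo against WT Ly6Chi, 2 were called with no filter (1.81% of all genes), 1 with a filter of 1 CPM in 3 libraries (6.22%), 8 by DESeq2 (10.7%), 4 in a fit of those 2 groups (5.01%), 3 over the 6 libraries of replicates 2 and 3 (2.49%), and 0 to 5 with a library left out (1.2% to 4.31%; 5 without KO Ly6Clo replicate 1, which enters only through the spread and the filter). In KO Ly6Clo against WT Ly6Chi, 2 were called with no filter (2.14%), 3 by DESeq2 (10.6%), 0 in a fit of those 2 groups (3.25%), 4 over the 6 libraries (3.8%), and 0 to 6 with a library left out (1.9% to 4.17%; 6 without KO Ly6Clo replicate 1, 0 without any other). The cause was not tested. With the replicate number as a block, 0, 0 and 1 members were called, the same counts as without it, where 0.0709%, 5.17% and 5.33% of all genes were. With a term for how the library numbers start, 0, 0 and 1 members were called too, where 0.0927%, 3.14% and 3.87% of all genes were. The numbers start with 017 for WT Ly6Chi replicate 1 and for replicates 1 and 2 of both Ly6Clo groups, and with 018 for the rest. The starts were thus split unequally between the monocyte classes. In a leave-one-out fit that leaves a group with 2 libraries, the spread is shared with the other groups.

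Among the 16 members named by the rule, log2 fold changes that turned sign were uncalled before and after. In KO Ly6Clo against WT Ly6Chi they were Cdk1 (-0.16 by limma-voom, -0.33 with the replicate block), Rrm2 (-0.64 and -0.29), Ccnb1 (0.06 with no filter), and over the 6 libraries Ccnb1 (1.02), Ccnb2 (0.19), Cdc20 (0.36), Mki67 (0.15) and Top2a (0.20). In WT Ly6Clo against WT Ly6Chi they were Cdk2 (0.03 with no filter, 0.16 over the 6 libraries) and Ccne1 (0.12 over the 6 libraries). With a library left out, values spanned both signs. For KO Ly6Clo against WT Ly6Chi the ranges were -0.64 to 0.48 (Cdk1), -0.47 to 1.03 (Rrm2), -1.19 to 0.53 (Ccnb1), -0.75 to 0.14 (Mki67), -0.87 to 0.07 (Top2a) and -0.07 to 0.21 (Cdk2). For WT Ly6Clo against WT Ly6Chi they were -0.11 to 0.43 (Mcm4), -0.21 to 0.28 (E2f1), -0.20 to 0.11 (Cdk2) and -1.65 to 0.20 (Ccne1), and for KO against WT Ly6Clo, of the named members, -0.03 to 0.28 (Cdk2). All 20 mitotic genes stayed negative in WT Ly6Clo against WT Ly6Chi in each of the 18 alternatives, with medians from -2.78 to -1.44. In KO against WT Ly6Clo, 18 to 20 mitotic and 15 or 16 S phase genes were positive. In KO Ly6Clo against WT Ly6Chi, 0 to 16 mitotic genes (medians -1.28 to 0.32) and 12 to 16 S phase genes (medians 0.21 to 1.34) were positive.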
